A study of Mus musculus with 16 samples.

Results

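YAP and TEAD pathway genes were followed here in mouse tumor cells under sorafenib. The set holds 10 named genes of the 40840 in the count table: the coactivators Yap1 and Wwtr1, which encodes TAZ, the kinases Lats1 and Lats2, the DNA-binding partners Tead1, Tead2 and Tead4, and the target genes Ankrd1, Amotl2 and Axl. All 10 had at least 10 counts in total and were tested among 20444 genes. At 48 hours of sorafenib, 9 of them rose (26.9% of all tested genes did), from 1.08-fold for Yap1 to 106-fold for Ankrd1. Without a library with lowered counts, described with the libraries, these values were 1.06-fold and 115-fold. The target genes Ankrd1, Axl and Amotl2 had the 3 largest fold changes. In vehicle cells, 8 of the 10 were higher at 7 days than at 48 hours, beside 23.9% of all tested genes. The treatment difference of 8 of the 10 was lower at 7 days than at 48 hours, beside 21.3%. For Tead2 a lower difference was a larger fall, and the small rise of Yap1 was not called at 7 days.

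The cells were p53-/-; Myc hepatoblasts, a mouse line used as a model of hepatocellular carcinoma that lacks the tumor suppressor p53 and overexpresses the oncogene Myc, so that all groups carried both changes and came from 1 line. They received the vehicle DMSO or sorafenib, an inhibitor of several kinases used against this cancer, for 48 hours or for 7 days, which made 4 groups of 4 libraries. The labels number the replicates but do not say whether they were separate cultures, so p-values measure the spread between these libraries, which may be technical. Polyadenylated RNA was sequenced, and reads were counted per gene.

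In the Hippo pathway, the kinases LATS1 and LATS2 phosphorylate YAP and TAZ, which keeps them out of the nucleus and marks them for degradation. Unphosphorylated YAP and TAZ enter the nucleus and bind TEAD proteins on DNA, where they turn on genes of growth, adhesion and the cytoskeleton. AMOTL2 and LATS2 restrain YAP and are themselves encoded by genes that YAP can turn on, a negative feedback, and in liver the pathway is known for its control of organ size and of progenitor cells. Transcript levels do not show the phosphorylation or the place of these proteins.

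Total counts ranged from 16586254 to 30828427 per library (median 26360677). In the library of sorafenib at 48 hours replicate 2, counts relative to the other libraries stepped down to 0.605 times their earlier level from Scel on chromosome 14 to the end of the genome order, which is -0.73 on the log2 scale. No other library had a step above 0.09 in either direction. Of the 10 genes, 1 lies in this stretch, Ankrd1. The other 9 genes each had their highest value of the group in this library. Some results that rest on it are given with and without it, and the others include it. By chi-square per gene, where counting error alone gives 1, DMSO at 7 days replicate 4 differed from the other 3 of its group by 41.4 to 55.0, while those differed from each other by 1.78 to 2.79. Leaving out this library changed 1 call of the 10 genes, that of Tead2 at 48 hours. The DMSO libraries of 48 hours fell in 2 pairs, replicates 1 and 4 and replicates 2 and 3, with 4.19 and 4.83 within and 14.4 to 32.7 between the pairs. Of the hepatoblast markers, Hnf4a was at 0 in every library and Alb at 0 or 1 count, while Dlk1 and Krt19 were well covered. The fibroblast and stellate cell markers Col1a1, Pdgfra, Pdgfrb and Dcn were also well covered, so the labelled cell type rested on a part of its markers. Summed over the 10 hepatoblast markers, normalized counts were 34811 to 36175 with DMSO and 12242 to 14015 with sorafenib at 48 hours, and 18304 to 20168 and 6040.4 to 6308 at 7 days. Dlk1 made up most of this sum, with a mean of 32234 in DMSO at 48 hours. Of the 7 hepatoblast markers tested, 1 was higher and 5 lower with sorafenib at 48 hours, and 1 was higher and 6 lower at 7 days. Of those lower, Krt8, Krt18 and Epcam lie in the lowered stretch. Of all tested genes, 26.9% were higher and 27.7% lower at 48 hours, and 28.9% and 27.9% at 7 days. The counts of all marker lists are to be read beside these shares. Sox9 rose by 1.64 and 1.37 log2. Summed over the 7 fibroblast and stellate markers, normalized counts were 45962 to 48577 and 82423 to 89306 at 48 hours, and 47103 to 49521 and 53216 to 55170 at 7 days. Col1a1 made up most of this sum, with means of 41939, 81072, 42221 and 52228 in the same order of groups. Of the 7 markers, 3 were higher and 3 lower at 48 hours, and 2 were higher and 5 lower at 7 days. Pdgfra fell with -2.12 and -2.26 log2, and Pdgfrb with -0.76 and -0.61. Pdgfrb lies in the lowered stretch, and that library had 688 normalized counts of it, against 1022 to 1109 in the others of its group. Col1a1 rose by 0.95 and 0.31 and Col1a2 by 1.75 and 0.67. Dcn rose by 0.43 at 48 hours and fell with -2.30 at 7 days. Lum fell at both times, and Des was called lower only at 7 days, with -1.14. The 4 endothelial and the 4 leukocyte markers summed to at most 228 and 88.1, with Cd3e and Adgre1 at 0 throughout. Of the 3 endothelial markers tested, 1 was higher and 1 lower with sorafenib at each time. Kdr rose by 1.325 and 2.65 log2, and Tek, with 2 to 25 raw counts per library, fell. The part of these markers in the results was not tested, and in bulk RNA fewer cells of a type and less RNA per cell cannot be told apart.

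In the GENCODE annotation of GRCm39, the target genes lie at chr19:36089352-36097506 (Ankrd1), chr9:102593836-102610617 (Amotl2) and chr7:25456535-25488329 (Axl), and the coactivators at chr9:7932000-8004661 (Yap1) and chr3:57363067-57483331 (Wwtr1). Lats1 lies at chr10:7556736-7592226, Lats2 at chr14:57926960-57995845, Tead1 at chr7:112278522-112506014, Tead2 at chr7:44865172-44883071 and Tead4 at chr6:128201251-128277786. The promoters of the target genes are shown first, since TEAD proteins are known to bind the letters CATTCC, or GGAATG on the other strand. Each sequence is 300 bases from RefSeq (table of build GRCm38.p6), from 250 bases before the start site to 50 after it, and was matched without a mismatch to 1 place in GRCm39, the build of the counts. Capitals mark CATTCC or GGAATG. The Ankrd1 promoter lies on the minus strand of chr19:36097195-36097494, that of Amotl2 on the plus strand of chr9:102594753-102595052, that of Axl on the minus strand of chr7:25488109-25488408, and 1 of the 2 Lats2 promoters in the table, printed for the feedback kinase, on the minus strand of chr14:57983531-57983830.
Ankrd1: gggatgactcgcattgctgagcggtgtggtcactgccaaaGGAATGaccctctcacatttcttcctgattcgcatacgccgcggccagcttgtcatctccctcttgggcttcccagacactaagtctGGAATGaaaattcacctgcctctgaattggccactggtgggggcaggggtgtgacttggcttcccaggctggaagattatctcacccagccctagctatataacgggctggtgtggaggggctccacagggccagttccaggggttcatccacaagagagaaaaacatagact
Amotl2: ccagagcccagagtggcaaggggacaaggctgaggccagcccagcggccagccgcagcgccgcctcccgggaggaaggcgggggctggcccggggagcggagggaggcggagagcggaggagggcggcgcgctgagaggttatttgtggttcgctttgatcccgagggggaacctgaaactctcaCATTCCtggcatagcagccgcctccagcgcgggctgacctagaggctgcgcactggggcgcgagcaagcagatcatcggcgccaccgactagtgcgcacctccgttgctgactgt
Axl: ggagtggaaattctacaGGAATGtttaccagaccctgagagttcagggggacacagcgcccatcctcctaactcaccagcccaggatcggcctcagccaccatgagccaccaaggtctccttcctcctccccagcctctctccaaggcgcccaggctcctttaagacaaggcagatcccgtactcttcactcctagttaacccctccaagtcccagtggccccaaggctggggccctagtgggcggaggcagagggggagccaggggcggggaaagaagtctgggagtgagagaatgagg
Lats2: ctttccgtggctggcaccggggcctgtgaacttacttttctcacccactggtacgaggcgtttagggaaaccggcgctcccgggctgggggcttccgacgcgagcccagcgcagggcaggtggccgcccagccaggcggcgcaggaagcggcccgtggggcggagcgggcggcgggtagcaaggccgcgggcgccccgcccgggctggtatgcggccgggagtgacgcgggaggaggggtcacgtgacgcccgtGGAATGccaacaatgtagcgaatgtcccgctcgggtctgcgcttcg

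The Ankrd1 promoter held the letters at 2 places, beginning 210 and 123 bases before the start site, and those of Amotl2 and Axl at 1 place each, 65 and 233 bases before it. In Lats2 the letters began 5 bases after the start site of the printed promoter, and the second Lats2 promoter in the table held none. Yap1 and Wwtr1 also held them, beginning 141 bases before the Yap1 start and 136 or 170 bases before the 2 Wwtr1 starts, while the promoters of Lats1 and Tead2 did not. In all, 8 of the 10 genes had a promoter in the table, and 6 of these 8 held the letters, beside 16.58% of 27025 genes and 14.66% of 32851 promoters of the same length. A match is a description of letters and not a measured binding site.

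**Figure D1:**
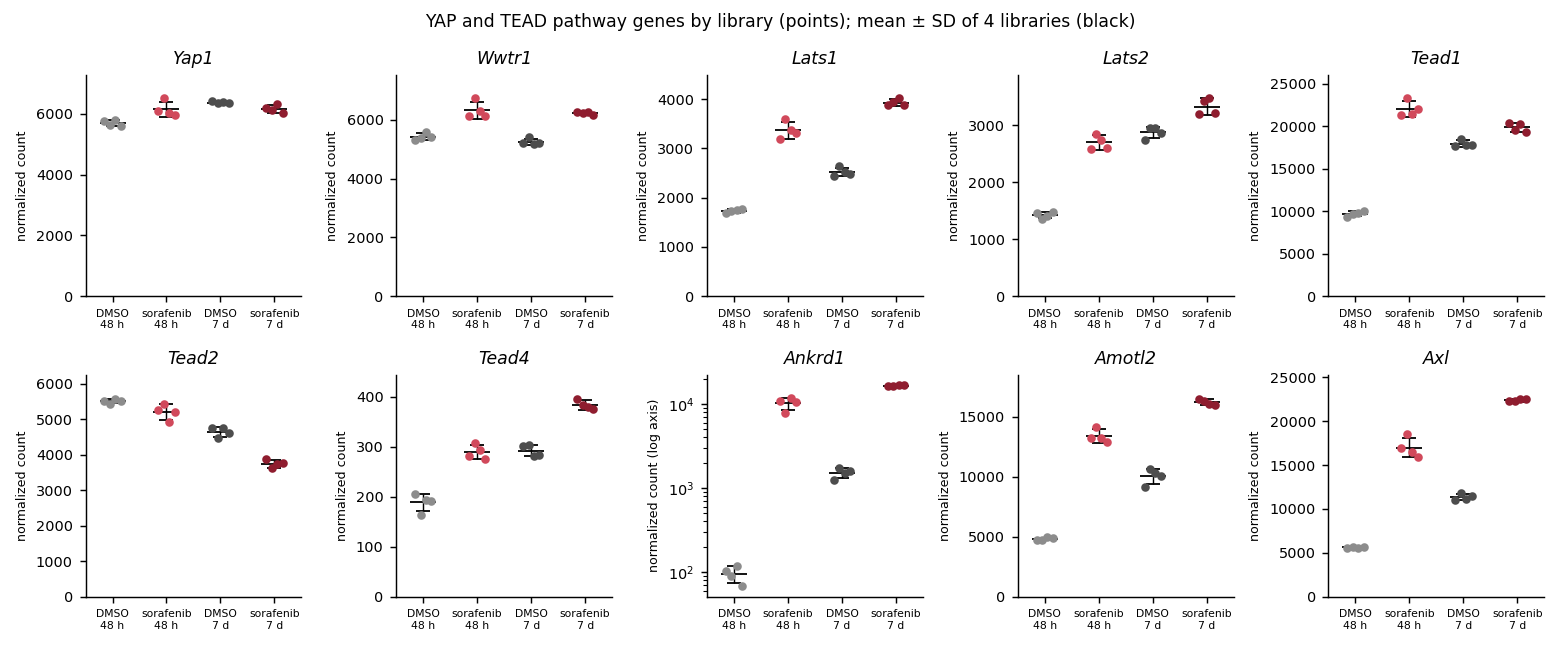
Normalized counts of the 10 genes in each of the 16 libraries (points), with the mean ± SD of the 4 libraries of a group in black, on linear axes from 0 except for Ankrd1, which has a log axis. The DMSO libraries at 48 hours were the lowest group for 8 of the 10 genes, and Tead2 had its highest values there.

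Ankrd1, which encodes an ankyrin repeat protein of muscle and stressed cells and is a standard readout of YAP activity, had the widest range of the 10 genes. Its normalized counts, which are counts divided by the library size after TMM scaling, were 104, 90.2, 119 and 67.4 in the DMSO libraries at 48 hours and 10754, 7794, 11592 and 10393 in the sorafenib libraries. At 7 days they were 1229, 1735, 1508 and 1596 with DMSO and 16263, 16424, 16796 and 16569.7 with sorafenib. No 2 groups overlapped, and the 7-day DMSO libraries lay between the DMSO and the sorafenib libraries of 48 hours. The log2 fold change of sorafenib was 6.75 ± 0.15 (SE) at 48 hours and 3.44 ± 0.12 at 7 days, with Benjamini-Hochberg adjusted p-values of 2.63e-18 and 1.26e-15 in edgeR's quasi-likelihood test over all genes. The value of 7794 belongs to the library with the lowered stretch, and without it the 48-hour change was 6.86 ± 0.074 and the group mean 10913 ± 615 (SD) in place of 10133 ± 1638.

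Axl and Amotl2 followed the same order of groups at higher starting levels. Axl, a receptor tyrosine kinase of the TAM family, had normalized counts of 5586, 5637, 5587 and 5606 with DMSO and 16936, 18552, 16472 and 15961 with sorafenib at 48 hours. The 7-day Axl values were 11057, 11821, 11128 and 11489.9 with DMSO and 22257, 22276, 22575 and 22500.5 with sorafenib. The 4 groups were separate, with sorafenib above DMSO at both times. With sorafenib Axl rose by 1.60 ± 0.038 log2 at 48 hours and by 0.98 ± 0.037 at 7 days (edgeR adjusted p 5.79e-18 and 8.01e-15).

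Amotl2 encodes an angiomotin family scaffold that binds YAP and restrains it. Its normalized counts were 4745, 4677, 4925 and 4856 with DMSO and 13195, 14170.3, 13245 and 12899 with sorafenib at 48 hours. At 7 days they were 9128, 10617, 10309 and 10074 with DMSO and 16505, 16293, 16022 and 15951 with sorafenib, again with no overlap between any of the groups. The Amotl2 rise was 1.48 ± 0.041 log2 at 48 hours and 0.69 ± 0.040 at 7 days (edgeR adjusted p 6.73e-17 and 7.10e-12).

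The coactivators themselves moved little. Yap1 had normalized counts of 5758, 5642, 5784 and 5592 with DMSO and 6087, 6509.8, 6013 and 5973 with sorafenib at 48 hours. After 7 days Yap1 had 6415, 6348, 6374 and 6339 with DMSO and 6190.0, 6138, 6311 and 6013 with sorafenib. The groups were separate at 48 hours with sorafenib above, and separate at 7 days with sorafenib below. The log2 difference was 0.11 ± 0.030 at 48 hours (edgeR adjusted p 0.00417) and -0.05 ± 0.030 at 7 days (edgeR adjusted p 0.191). Yap1 therefore rose at 48 hours and did not pass the test at 7 days. Without the library that holds the lowered stretch, the 48-hour difference was 0.08 ± 0.025 (edgeR adjusted p 0.00507). The 48-hour call was lost without DMSO replicate 4 (0.07, edgeR adjusted p 0.0602) and with libraries scaled by total counts only (0.04, edgeR adjusted p 0.398), and a fit on the 8 libraries of 7 days called Yap1 lower (edgeR adjusted p 0.0279).

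Wwtr1, the gene of TAZ, rose at both times. It had 5297, 5370.1, 5575 and 5426 normalized counts with DMSO and 6113, 6732, 6299.7 and 6125 with sorafenib at 48 hours. At 7 days it had 5223, 5409.5, 5169.7 and 5221 with DMSO and 6254, 6241, 6275 and 6161 with sorafenib, and the treated libraries stood above the vehicle libraries at each time. The rise was 0.22 ± 0.032 log2 at 48 hours and 0.25 ± 0.032 at 7 days (edgeR adjusted p 5.96e-06 and 1.42e-06). Per kilobase of exon, the Yap1 level was 57.0% ± 0.582 (SD) of the Yap1 and Wwtr1 sum with DMSO and 55.1% ± 0.438 with sorafenib at 48 hours, and 60.5% ± 0.537 and 55.5% ± 0.314 at 7 days. The Wwtr1 to Yap1 ratio within a library was higher with sorafenib by 0.11 log2 at 48 hours and by 0.29 at 7 days, with no overlap between groups. Each exact two-sided permutation test of 4 against 4 libraries gave p = 0.0286, the smallest it can give, and 0.0327 after adjustment over 8 such tests of ratios.

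Both LATS kinase genes rose at both times. Lats1 had normalized counts of 1683, 1719, 1758 and 1766 with DMSO and 3182, 3597, 3376 and 3313 with sorafenib at 48 hours. The 7-day Lats1 counts were 2439, 2632, 2521 and 2476 with DMSO and 3876, 3932, 4014 and 3879 with sorafenib. The Lats1 groups were separate and its rises were 0.96 ± 0.038 and 0.64 ± 0.037 log2 (edgeR adjusted p 1.74e-14 and 6.91e-12).

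Lats2 had normalized counts of 1457, 1365, 1409.9 and 1488 with DMSO and 2593, 2856, 2745 and 2609.9 with sorafenib at 48 hours. At 7 days the Lats2 counts were 2753, 2957, 2952 and 2861 with DMSO and 3195, 3429.7, 3477 and 3223 with sorafenib. Treated stood above vehicle libraries at each time, and the vehicle libraries of 7 days overlapped the treated libraries of 48 hours. The Lats2 rises were 0.92 ± 0.043 and 0.21 ± 0.041 log2 (edgeR adjusted p 2.50e-13 and 1.88e-04). The Lats2 to Lats1 ratio did not separate the groups at 48 hours, with a difference of -0.04 log2 (exact permutation p = 0.286, also after adjustment). With sorafenib for 7 days the ratio fell by 0.43 log2 (exact permutation p = 0.0286, adjusted 0.0327). In the annotation Lats2 shares 2955 exonic bases with Gm49361 on the same strand, and how reads there were assigned was not given in the sources used here.

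Among the TEAD genes, Tead1 and Tead4 rose and Tead2 fell. Tead1 had normalized counts of 9361, 9649.7, 9742 and 10062 with DMSO and 21281, 23296, 21475 and 22022 with sorafenib at 48 hours. The Tead1 counts of 7 days were 17709, 18523, 17806 and 17777 with DMSO and 20379.7, 19545, 20224 and 19360.5 with sorafenib. No groups of Tead1 overlapped, and the treatment difference of 1.18 ± 0.033 log2 at 48 hours was 0.15 ± 0.032 at 7 days (edgeR adjusted p 7.63e-17 and 6.19e-04).

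Tead2, the TEAD factor known from early embryos and neural progenitors, had normalized counts of 5527, 5439.5, 5586 and 5524 with DMSO and 5255, 5444, 4917 and 5206 with sorafenib at 48 hours. Here 1 treated library, the one that holds the lowered stretch, lay above the lowest vehicle library. At 7 days the Tead2 counts were 4752, 4478, 4742 and 4606 with DMSO and 3889, 3619.7, 3726 and 3774 with sorafenib, which did not overlap. The Tead2 difference was -0.08 ± 0.034 log2 at 48 hours (edgeR adjusted p 0.0405) and -0.31 ± 0.034 at 7 days (edgeR adjusted p 1.45e-07). The 48-hour call of Tead2 was at the edge of the threshold and was lost without any 1 of 3 libraries of 7 days, DMSO replicate 4 and sorafenib replicates 3 and 4, where the edgeR adjusted p ran from 0.0502 to 0.0506. It was also lost with no filter beyond 1 count (-0.05, edgeR adjusted p 0.305) and with the replicate number as a block (edgeR adjusted p 0.0555), and without the library that holds the lowered stretch it was -0.11 (edgeR adjusted p 0.00101).

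Tead4 was the TEAD gene with the fewest counts, 189 to 471 raw counts per library. Its normalized counts were 205, 164, 194 and 191 with DMSO and 281, 307, 292 and 275 with sorafenib at 48 hours. At 7 days they were 301, 303, 281 and 283 with DMSO and 396, 383, 379 and 375 with sorafenib, with treated above vehicle libraries at both times. The Tead4 rises were 0.62 ± 0.069 and 0.39 ± 0.062 log2 (edgeR adjusted p 1.89e-07 and 1.62e-05).

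Per kilobase of exon and with Tead3, which is outside the 10 genes, Tead1 made up 38.0% ± 0.800 (SD) of the TEAD level with DMSO at 48 hours, 58.7% ± 1.02 with sorafenib at 48 hours, 56.3% ± 0.951 with DMSO at 7 days and 61.9% ± 0.490 with sorafenib at 7 days. The Tead2 share was 53.7% ± 0.549, 34.5% ± 0.765, 36.2% ± 1.10 and 29.0% ± 0.539 in the same order of groups. Tead2 was therefore the leading TEAD transcript only in the DMSO libraries of 48 hours, by this measure of level. That lead rests on the exon lengths, since without them Tead1 over Tead2 in these libraries was 1.76 in place of 0.71. Tead4 made up between 1.65% ± 0.146 and 2.67% ± 0.0473, and Tead3 between 5.14% ± 1.10 and 6.65% ± 0.266. Tead3 lies in the lowered stretch of 1 library, and without that library the shares at 48 hours of sorafenib were 58.3% for Tead1, 34.4% for Tead2, 5.68% for Tead3 and 1.71% for Tead4. The Tead2 to Tead1 ratio fell by 1.27 log2 at 48 hours and by 0.45 at 7 days, and the Tead4 to Tead1 ratio fell by 0.56 at 48 hours and was higher by 0.25 at 7 days (exact permutation p = 0.0286 for each of the 4 tests, adjusted 0.0327).

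**Figure D2:**
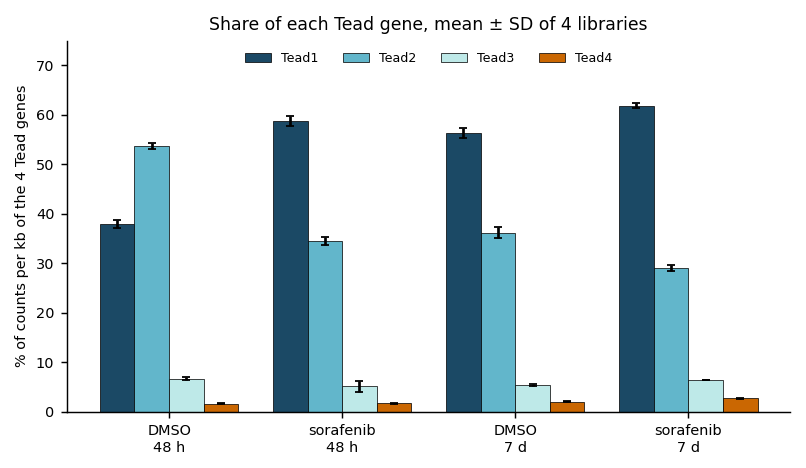
Share of each Tead gene in the summed counts per kilobase of exon of Tead1, Tead2, Tead3 and Tead4, by group, as the mean of 4 libraries with SD bars. Tead2 was the largest share with DMSO at 48 hours (53.7%) and Tead1 in the other 3 groups (56.3% to 61.9%). Without exon length, Tead1 was above Tead2 with DMSO at 48 hours too (1.76 times).

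Of the 10 genes, 9 were called higher and 1 lower with sorafenib at 48 hours, where 26.9% of all tested genes were called higher and 27.7% lower. At 7 days 8 were called higher, 1 lower (Tead2) and 1 neither (Yap1), beside 28.9% and 27.9% of all tested genes. The median log2 fold change of the 10 genes was 0.94 at 48 hours and 0.32 at 7 days, against -0.05 and 0.02 over all tested genes. Both counts were the same without the library that holds the lowered stretch. The 10 genes were picked with earlier results of these data known, so these counts describe them and are no test of the pathway.

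**Figure D3:**
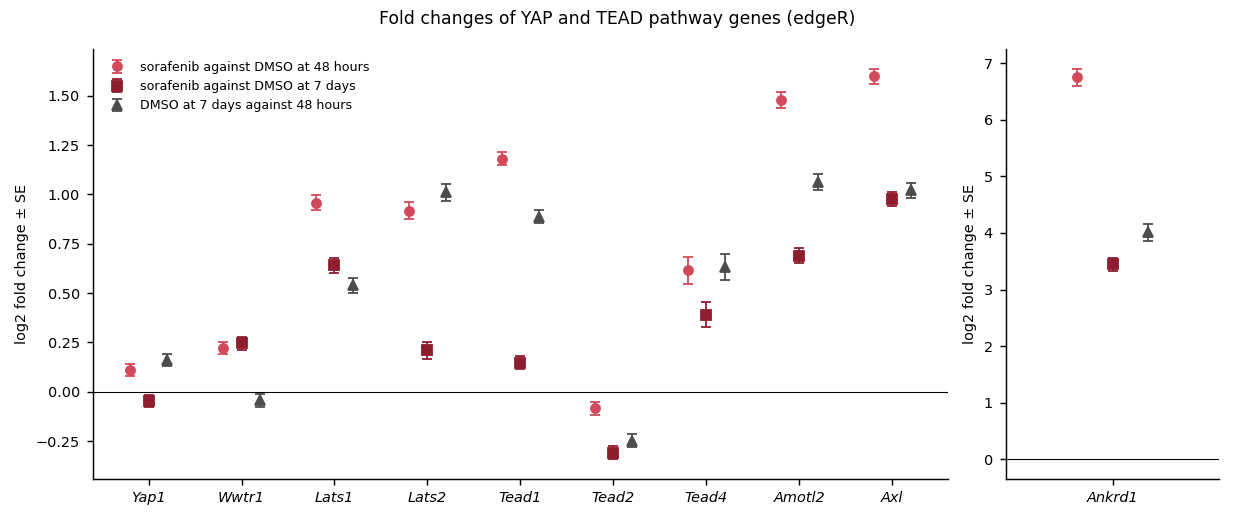
Log2 fold changes with SE (edgeR) of the 10 genes for sorafenib against DMSO at 48 hours and at 7 days and for DMSO at 7 days against 48 hours, with Ankrd1 on an axis of its own. Circles of 48 hours lie above squares of 7 days for every gene but Wwtr1, and triangles of the vehicle cells lie above 0 for 8 genes.

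Whether the treatment difference itself changed with time was tested as the interaction of treatment and time, the 7-day difference minus the 48-hour difference. It was lower for 8 of the 10 genes and higher for none, beside 21.3% and 15.5% of all tested genes. The largest was that of Ankrd1 with -3.31 ± 0.19 log2 (edgeR adjusted p 2.38e-11), or -3.42 ± 0.10 without the library that holds the lowered stretch. Then came Tead1 with -1.03 ± 0.046, Amotl2 with -0.79 ± 0.056, Lats2 with -0.71 ± 0.059 and Axl with -0.62 ± 0.052. Lats1, Tead2 and Yap1 had -0.32, -0.22 and -0.16, and the edgeR adjusted p-values of all 8 were at most 0.00608. For Tead2 the lower difference was a larger fall, and for Yap1 a small rise at 48 hours was not called at 7 days. For the others it was a smaller rise. Wwtr1 and Tead4 did not pass, with 0.02 ± 0.045 (edgeR adjusted p 0.727) and -0.22 ± 0.092 (edgeR adjusted p 0.0657). The interaction of Yap1 was not called among genes with at least 10 counts in every library (-0.09, edgeR adjusted p 0.0566). The interactions of Yap1 and Tead2 were not called when libraries were scaled by total counts only (-0.06 and -0.13, edgeR adjusted p 0.386 and 0.0898), a scaling under which the median of all genes was -0.12 at 48 hours and 0.12 for the interaction. Under it, 55.6% of all interaction calls were higher ones, against 42.1% with TMM scaling.

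The time comparisons share their libraries with the treatment comparisons, so their values are set side by side only. In DMSO cells, 8 of the 10 genes were higher at 7 days than at 48 hours and 1 lower, Tead2, beside 23.9% and 25.5% of all tested genes. The vehicle difference of Ankrd1 was 4.01 ± 0.15 log2 (edgeR adjusted p 3.50e-14), from a mean of 95.2 ± 22.0 to 1517 ± 213 normalized counts (SD). Amotl2, Axl and Lats2 were higher by 1.06, 1.02 and 1.01 log2, Tead1 by 0.89, Tead4 by 0.63, Lats1 by 0.54 and Yap1 by 0.16, with edgeR adjusted p-values of at most 1.36e-04. Wwtr1 was at -0.04 ± 0.032 (edgeR adjusted p 0.287).

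In sorafenib cells the time differences were small beside those of DMSO cells for the target genes. Of the 10 genes, 6 were higher at 7 days and 2 lower, beside 17.5% and 22.3% of all tested genes. Ankrd1 was higher by 0.70 ± 0.10 log2 (edgeR adjusted p 1.56e-05), and by 0.60 ± 0.047 without the library that holds the lowered stretch. Tead4, Axl, Lats2, Amotl2 and Lats1 were higher by 0.41, 0.40, 0.30, 0.28 and 0.22. Tead2 fell further, with -0.47 ± 0.034 (edgeR adjusted p 9.22e-10), and Tead1 was lower with -0.15 ± 0.032 (edgeR adjusted p 0.00102). Yap1 and Wwtr1 differed by 0.00 and -0.02 and did not pass (edgeR adjusted p 0.926 and 0.682).

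Levels between the genes were compared per kilobase of exon. With DMSO at 48 hours Tead2 led with 1010.2 ± 11.0 normalized counts per kilobase (SD), then came Tead1 with 715 ± 21.3, Amotl2 with 680.0 ± 15.7, Axl with 610.5 ± 2.62 and Yap1 with 607 ± 9.79. Axl and Yap1 did not differ there beyond their spread. Wwtr1 had 458 ± 9.97. Lats1 and Lats2 had 138 ± 3.05 and 136 ± 5.16, and Ankrd1 and Tead4 had 31.9 ± 7.39 and 31.1 ± 2.89. Neither of these pairs differed beyond its spread. The Lats2 level rests on its full exon length, which includes the 2955 bases shared with Gm49361. With sorafenib at 48 hours Ankrd1 led with 3397 ± 549 (3658 ± 206 without the library that holds the lowered stretch), before Amotl2 with 1895 ± 77.9 and Axl with 1849.7 ± 122, which did not differ beyond their spread, and Tead1 with 1622 ± 66.9. With DMSO at 7 days Amotl2 had the highest mean with 1421 ± 91.0, then came Tead1 with 1323 ± 28.1, and Ankrd1 had 509 ± 71.5. The SD ranges of Amotl2 and Tead1 overlapped there. With sorafenib at 7 days Ankrd1 had moved to the top with 5536 ± 75.9, ahead of Axl with 2440.3 ± 17.4, Amotl2 with 2294 ± 36.1 and Tead1 with 1464 ± 36.8. Tead4 was last with 63.1 ± 1.51, below Lats1 and Lats2 with 313 ± 5.16 and 318 ± 13.6.

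Further genes of the pathway were read from lists that leave out the 10 genes. Of 51 such genes, 50 were tested, and Vgll1 was at 0 counts in every library. At 48 hours 35 were higher and 9 lower with sorafenib, and at 7 days 26 were higher and 18 lower. Each list count is to be read beside the shares of all tested genes, 26.9% called higher and 27.7% lower at 48 hours and 28.9% and 27.9% at 7 days. The median log2 fold changes were 0.48 and 0.13. The interaction was higher for 7 and lower for 28 of the 50, beside 15.5% and 21.3% of all tested genes, or for 11 higher with total counts only. Without the library that holds the lowered stretch, the counts were 36 and 10 at 48 hours and 27 and 19 at 7 days.

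The list of YAP and TAZ target genes held 18 genes, of which 15 were higher and 2 lower at 48 hours, and 11 higher and 5 lower at 7 days, beside 26.9% and 27.7%, and 28.9% and 27.9%, of all tested genes. Its medians were 1.27 and 0.84 log2. Ccn2, which encodes a matricellular growth factor, rose by 5.97 ± 0.078 log2 at 48 hours, from 298 ± 20.9 to 18636 ± 1562 normalized counts (SD), and by 2.60 ± 0.063 at 7 days (edgeR adjusted p 1.97e-21 and 8.58e-18). Ccn1, its close relative, rose by 2.78 and 1.16. Gadd45a, a gene of the DNA damage and stress response, rose by 3.66 and 3.40, and its interaction of -0.26 did not pass (edgeR adjusted p 0.0713).

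Some genes of the target list went the other way. Ccdc80, which encodes a secreted matrix protein, fell with -0.99 ± 0.078 log2 at 48 hours and -1.93 ± 0.079 at 7 days, and with -0.87 and -1.93 without the library that holds the lowered stretch. Arhgef17 fell with -0.15 and -0.58. Igfbp3, which binds insulin-like growth factors, had 0.24 at 48 hours without passing (edgeR adjusted p 0.140) and fell with -1.77 at 7 days, at group means of 54.4 to 186 normalized counts. The other 2 target genes called lower at 7 days, named after their values were seen, were Fjx1 with -0.16 and Rbms3 with -0.16.

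In the list of the Hippo kinase cascade and its inputs, 15 of 20 genes were higher and 4 lower at 48 hours, and 8 were higher and 9 lower at 7 days, when 28.9% and 27.9% of all tested genes were. Taok3, a kinase upstream of the cascade, rose by 1.33 and 1.34 log2. Wwc2, a scaffold of the KIBRA family, rose by 1.10 ± 0.039 at 48 hours and by 0.11 ± 0.038 at 7 days, a call lost without DMSO replicate 1 or sorafenib replicate 2 or 3 of 7 days (edgeR adjusted p 0.0584 to 0.0666). Of the other angiomotins, Amotl1 rose by 0.77 and 1.19, while Amot fell with -0.63 and -0.39, or -0.51 at 48 hours without the library that holds the lowered stretch. Wtip, a LIM protein that binds LATS kinases, fell with -0.39 and -0.27. The other 2 genes of this list called lower at 48 hours, named after their values were seen, were Taok2 with -0.30 and Limd1 with -0.14. The atypical cadherin Dchs1 had 0.15 at 48 hours without passing (edgeR adjusted p 0.0911) and fell with -0.38 at 7 days.

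Of the TEAD and VGLL list, 4 of 5 genes were tested, with 2 higher and 1 lower at each time. A gene called higher at 48 hours was Vgll2, named after its values were seen, which had only 0 to 9 raw counts per library. Vgll3, a TEAD cofactor, rose by 3.70 ± 0.11 log2 at 48 hours, from 147 ± 17.2 to 1901 ± 328 normalized counts (SD), and by 2.44 ± 0.093 at 7 days. Without the library that holds the lowered stretch the 48-hour rise was 3.82 ± 0.058. Vgll4, which competes with YAP for TEAD proteins, fell with -0.69 ± 0.043 and -0.26 ± 0.042. Tead3 had 0.19 ± 0.093 at 48 hours (edgeR adjusted p 0.103) and rose by 0.26 ± 0.091 at 7 days (edgeR adjusted p 0.0217). Without the library that holds the lowered stretch Tead3 was called at 48 hours, with 0.31 ± 0.047 (edgeR adjusted p 9.43e-08). Its 7-day call was lost without DMSO replicate 1 or 4 or sorafenib replicate 1 or 3 (edgeR adjusted p 0.0505 to 0.0597).

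The phosphodegron list covers the casein kinases and the F-box proteins that mark YAP for degradation. Of its 4 genes, 2 were higher and none lower at 48 hours, and 3 were higher and 1 lower at 7 days. Fbxw11 rose by 0.41 and 0.39 log2, and Csnk1e by 0.32 and 0.31. Btrc had -0.11 at 48 hours (edgeR adjusted p 0.394) and rose by 0.49 at 7 days, and Csnk1d had -0.06 at 48 hours (edgeR adjusted p 0.134) and fell with -0.11 at 7 days. Csnk1e and Btrc lie in the lowered stretch, and without that library their 48-hour values were 0.44 and 0.02. Csnk1d was called lower at 48 hours without that library (-0.09, edgeR adjusted p 0.00161) or without sorafenib replicate 1 or DMSO replicate 1, 3 or 4 (edgeR adjusted p 0.0226 to 0.0443), and in DESeq2 (adjusted p 0.0264). The 48-hour call of Csnk1e was lost in a fit on the 8 libraries of 48 hours (0.30, edgeR adjusted p 0.0580), and the 7-day call of Csnk1d with total counts only (-0.08, edgeR adjusted p 0.0833).

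Of the other TAM genes, Gas6 and Mertk fell at both times. Gas6, the ligand of AXL, fell with -0.66 ± 0.073 log2 at 48 hours and -1.17 ± 0.077 at 7 days. Its normalized counts went from 2225 ± 41.6 to 1415 ± 210.4 and from 1415 ± 105 to 630.0 ± 23.2 (SD). Without the library that holds the lowered stretch, the 48-hour Gas6 fall was -0.76 ± 0.045. The receptor gene Mertk fell with -0.63 and -2.43 (edgeR adjusted p 4.64e-09 and 3.43e-18). Tyro3, the remaining receptor, had 0.04 at 48 hours (edgeR adjusted p 0.559) and rose by 0.63 at 7 days. Pros1, the other ligand, rose by 0.88 and 1.70 at low levels, with group means from 22.8 to 85.4 normalized counts, and by 1.00 at 48 hours without the library that holds the lowered stretch. Of this list, 1 gene was higher and 2 lower at 48 hours, and 2 were higher and 2 lower at 7 days.

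**Figure D4:**
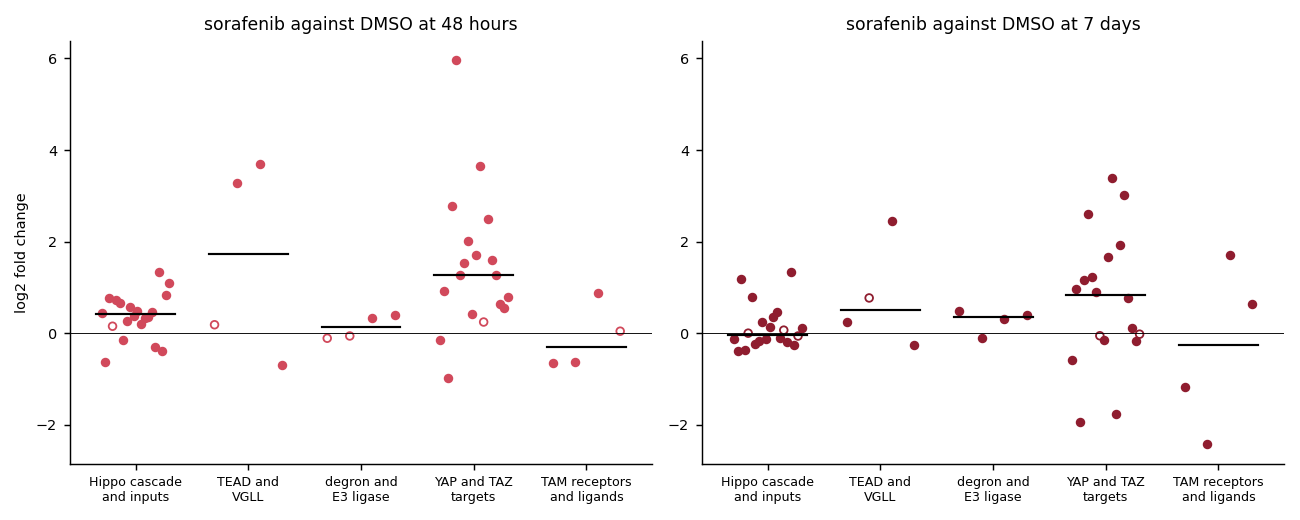
Log2 fold changes of sorafenib against DMSO for the 50 tested genes of the 5 lists at 48 hours and at 7 days, with called genes filled, others open and the list median as a bar. The target list had its median at 1.27 at 48 hours and 0.84 at 7 days, and the Hippo cascade list at 0.41 and -0.03.

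For the 3 genes with the widest range of group means, the genes with the most similar pattern were sought among 10636 genes, as the root mean square distance between centered log2 levels over the 16 libraries. Nearest to Ankrd1 were Lgals3, the gene of galectin 3, with 0.41, Ccn2 with 0.47 and Ppef1, a phosphatase gene, with 0.63, against a median of 2.93 over all genes. Nearest to Axl were Fhl2 with 0.07, Dock5 with 0.07 and Lrrfip1 with 0.08 (median 0.79). Nearest to Amotl2 were Samd4 with 0.03, Lrrfip1 with 0.08 and Pdlim7 with 0.09 (median 0.71). Fhl2 and Pdlim7 encode LIM domain proteins, Dock5 an exchange factor for Rac and Samd4 an RNA-binding protein. Group means of Lgals3 were 29.5 and 2097 normalized counts with DMSO and sorafenib at 48 hours, and 306 and 5198 at 7 days. Ppef1 averaged 2.26 normalized counts with DMSO at 48 hours, below the 3 counts taken as the floor.

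**Figure D5:**
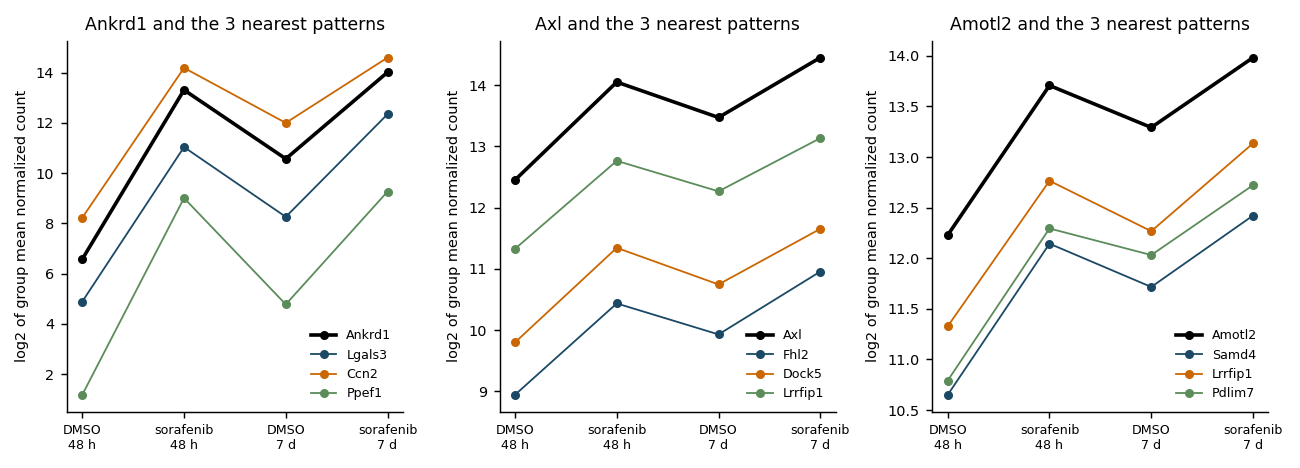
Log2 of the group mean normalized count for Ankrd1, Axl and Amotl2 (black) and the 3 genes nearest to each in pattern, across the 4 groups. In each panel the lines rise from DMSO to sorafenib at both times and start higher for DMSO at 7 days than at 48 hours.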

How the data were processed

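Sorafenib and DMSO libraries (4 groups of 4) were made from polyadenylated RNA with a stranded kit. The authors aligned the reads to GRCm39 with STAR 2.7.1a, and the deposited values are raw counts per gene, with featureCounts 2.0.6 named in the submitters' processing notes. The strand setting and the annotation of the counting were not given in the sources used here. On opposite strands, Ankrd1 shares 724 exonic bases with Gm56671, Tead2 223 with Cd37, Lats1 165 with Pcmt1 and Yap1 116 with Gm20416. No column of per-sample values was left out.

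Genes with fewer than 10 counts in total were removed, as the authors did (20396 genes). edgeR 4.0.16 in R 4.3.3 (TMM, quasi-likelihood test, 1 coefficient per group, no block) was fitted to all 20444 genes, with Benjamini-Hochberg adjustment and calls at 0.05. The authors used DESeq2 1.40.2, and DESeq2 1.42.0 was an alternative. The steps were tested on simulated data. Normalized counts are relative to the geometric mean library size of the 16 libraries. The members and lists were chosen with earlier results of these data known.

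Named beside the members were Tead3, Vgll4, Ccn1, Ccn2 and Gas6, the 2 largest called increases and decreases of each list at each time (averaging 50 normalized counts or more in the 8 libraries compared), and the 3 genes nearest in pattern to the 3 members with the widest range (averaging 100 or more). Adgre1, Cd3e and other markers came from cell type lists. Replicates of a group differed by 1.49 to 55.0 in chi-square per gene, against 1 for counting error. Correlations of deviations between libraries with the same replicate number ran from -0.05 to 0.01 at 48 hours and from -0.01 to 0.12 at 7 days, so the numbers were not taken to pair libraries. Libraries with unlike numbers were not compared in this way, so a pairing is not excluded.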

Additional observations from a re-analysis of the deposited data

Results flagged for a closer look

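In 1 of the 40 combinations of gene and group, a library stood apart from the other 3: Tead1 in DMSO at 7 days replicate 2, with 18523 normalized counts. Chance flags about 1 in 20 groups by this measure. The remaining entries are treatment differences that were not the same at 7 days as at 48 hours, by the interaction test of edgeR, given as the 7-day minus the 48-hour log2 fold change. Among the 10 genes these were Ankrd1 with -3.31, Tead1 with -1.03, Amotl2 with -0.79, Lats2 with -0.71, Axl with -0.62, Lats1 with -0.32, Tead2 with -0.22 and Yap1 with -0.16.

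Of the further genes named, those with a lower difference at 7 days were Ccn2 with -3.37, Igfbp3 with -2.02, Mertk with -1.80, Ccn1 with -1.62, Vgll3 with -1.26, Wwc2 with -0.99, Ccdc80 with -0.95, Dock5 with -0.64, Dchs1 with -0.53, Gas6 with -0.51 and Arhgef17 with -0.43. Those with a higher difference at 7 days were Pros1 with 0.82, Btrc with 0.60, Tyro3 with 0.59, Vgll4 with 0.43 and Amotl1 with 0.42. A lower difference is a smaller rise for Ccn2, Ccn1, Vgll3, Wwc2 and Dock5, and a larger fall for Mertk, Ccdc80, Gas6 and Arhgef17. Vgll3, Btrc, Ccdc80 and Pros1 lie in the stretch where 1 library of sorafenib at 48 hours had lowered counts. Without that library their interactions were -1.37, 0.46, -1.06 and 0.70. The interaction of Gas6, which lies outside the stretch, was -0.41 without it. The interaction of Pros1 was not called without DMSO at 7 days replicate 1 (0.66, edgeR adjusted p 0.0572) or replicate 3 (0.77, edgeR adjusted p 0.0546).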

How the results depend on the processing

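Of 228 recounts of the members called higher or lower, 221 stayed within 1.5 times the reported count. The exceptions rest on Tead2, Yap1 and Wwtr1. At 48 hours the count of members called lower, 1 as reported, was 0 with no filter beyond 1 count and 0 with the replicate block, and ran from 0 to 1 when 1 library was left out at a time. At 7 days it was 2 in place of 1 with only the groups compared, through Yap1. For DMSO at 7 days against 48 hours it was 2 in place of 1 with total counts only, through Wwtr1. With total counts only, 11 in place of 7 list genes had a higher interaction. The cause was not tested. The numbers of the replicates were not taken to pair libraries, and the replicate block kept 9 and 8 members called higher at 48 hours and 7 days. It gave an edgeR adjusted p of 0.0555 for Tead2 at 48 hours. Of 1140 recomputed fold changes of single members 10 lost and 3 gained a call, and no called one changed sign. All 80 recomputed ratios kept their direction, though the exact permutation test with the replicate block cannot give a p below 0.125. Without exon length, all 4 ratios of levels moved, among them Tead1 over Tead2 with DMSO at 48 hours, from 0.71 to 1.76. Ankrd1 in DMSO at 48 hours rests on at least 78 raw counts per library.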
